A study of Mus musculus with 36 samples.

Results

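The genes described here encode 8 small leucine-rich proteoglycans: decorin (Dcn), biglycan (Bgn), asporin (Aspn), lumican (Lum), fibromodulin (Fmod), prolargin (Prelp), osteomodulin (Omd) and osteoglycin (Ogn). They were chosen by name, as the probe sets annotated to exactly 1 of these symbols, and made up 8 of 18194 gene symbols and 19 of 34958 probe sets with 1 symbol. A probe set is a group of short probes on the array that together report 1 transcript, and the probe set with the highest mean over all 36 arrays stood for each gene. The arrays measured mRNA of the fourth inguinal mammary gland of female C57BL/6 fetuses at embryonic day (E) 19, in which the ductal epithelium and the stroma around the ducts had been cut out separately with a laser, 1 gland from each fetus. All fetuses came from matings of mice heterozygous for ERα, the estrogen receptor encoded by Esr1, and were either ERα(−/−), which lack the gene in every cell, or ERα(+/+). From E8 the dams carried pumps that delivered bisphenol A (BPA, 250 ng per kg per day), the synthetic estrogen 17α-ethynylestradiol (EE2, 10 ng per kg per day) or the vehicle alone, a dimethylsulfoxide solution that every dam received. The 12 groups were stroma and epithelium of ERα(−/−) and of ERα(+/+) fetuses after BPA, EE2 or vehicle, with 3 arrays from separate litters in each. Per the methods, 1 fetus of each genotype was taken from a treated litter, so ERα(−/−) and ERα(+/+) groups can share litters. The labels do not name the litters, and the fits did not pair littermates.

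Small leucine-rich proteoglycans are secreted proteins with a curved core of leucine-rich repeats, most of which carry sugar chains. They sit on the surface of collagen fibrils, where they set the width and spacing of the fibrils, and several hold growth factors of the TGF-β family in the matrix. In connective tissue they are made mainly by fibroblasts, and in the mammary gland they belong to the collagen-rich matrix that surrounds the ducts. Class I (Dcn, Bgn, Aspn) and class II (Lum, Fmod, Prelp, Omd) differ in sequence and in the kind of chain that their members carry, chondroitin or dermatan sulfate in Dcn and Bgn and keratan sulfate in most of class II, and Ogn belongs to class III.

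Most of the genes lie next to relatives on the mouse chromosomes. In the RefSeq annotation of GRCm38.p6 the family genes follow each other as Dcn, Lum, Kera and Epyc on chromosome 10, as Ecm2, Aspn, Omd and Ogn on chromosome 13 and as Optc, Prelp and Fmod on chromosome 1, while Bgn lies on the X chromosome. Promoter sequences from RefSeq were matched for 6 of the 8 genes (Bgn, Aspn, Fmod, Prelp, Omd and Ogn). Shown are the 250 bases before the annotated start, read 5′ to 3′ on the gene's strand (GRCm38.p6), of the genes whose level differed between the compartments in opposite directions, Bgn, Aspn and Ogn (higher in stroma) and Prelp (lower in stroma). Capitals mark 4 short motifs, searched on both strands: TATAAA of the TATA box, CCAAT of the element that NF-Y binds, GGGCGG of the element that Sp1 binds, and CAGCTG of the E-box.
Bgn promoter (chrX:73483351-73483600, plus strand): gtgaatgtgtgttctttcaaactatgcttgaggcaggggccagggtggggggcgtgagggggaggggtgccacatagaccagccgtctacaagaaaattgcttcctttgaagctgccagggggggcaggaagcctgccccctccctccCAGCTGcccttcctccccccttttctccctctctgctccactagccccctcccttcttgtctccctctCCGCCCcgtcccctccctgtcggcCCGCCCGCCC
Aspn promoter (chr13:49544193-49544442, plus strand): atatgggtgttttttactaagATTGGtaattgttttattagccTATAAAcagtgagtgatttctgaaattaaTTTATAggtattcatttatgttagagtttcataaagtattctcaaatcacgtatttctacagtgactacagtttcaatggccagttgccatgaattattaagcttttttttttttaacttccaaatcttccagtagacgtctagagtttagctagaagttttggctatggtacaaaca
Ogn promoter (chr13:49607765-49608014, plus strand): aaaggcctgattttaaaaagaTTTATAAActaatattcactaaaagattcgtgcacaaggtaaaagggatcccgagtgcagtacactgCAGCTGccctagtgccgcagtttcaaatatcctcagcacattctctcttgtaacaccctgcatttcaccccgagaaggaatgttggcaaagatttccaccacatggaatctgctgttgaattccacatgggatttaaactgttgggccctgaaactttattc
Prelp promoter (chr1:133921402-133921651, minus strand): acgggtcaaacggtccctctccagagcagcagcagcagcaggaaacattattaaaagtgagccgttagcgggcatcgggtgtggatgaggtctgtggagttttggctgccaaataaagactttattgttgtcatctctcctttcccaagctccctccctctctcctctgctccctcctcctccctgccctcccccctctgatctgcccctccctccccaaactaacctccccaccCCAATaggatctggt
The Bgn stretch held GGGCGG at 3 places on the opposite strand, of which 2 overlap and reach the last base before the start, and the E-box motif at 1 place. The Aspn stretch held TATAAA once on each strand, from 207 to 202 and from 178 to 173 bases before the start. It held the NF-Y motif on the opposite strand. The Ogn stretch held overlapping TATAAA matches on both strands, from 229 to 224 and from 227 to 222 bases before the start, and the E-box motif once. The Prelp stretch held the NF-Y motif once, from 15 to 11 bases before the start. Among 32851 stretches of the same length before annotated starts, 12.4% held TATAAA, 33.8% held CCAAT, 32.7% held GGGCGG and 13% held CAGCTG. A further motif, TGANTCA of the element that AP-1 binds, was held by 6.75% of them and by none of the 6 genes, and the stretches of Fmod and Omd held none of the 5 motifs. These matches describe letters in a window and were not related to the levels by any test.

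The deposited values are linear signals with no fixed unit, whose median over all probe sets lay between 12 and 44.1 on the stroma arrays and between 10.9 and 66.8 on the epithelium arrays. All 14 epithelial markers were lower in stroma than in epithelium and 14 of 16 fibroblast markers were higher (adjusted p under 0.05). Of all probe sets, 13.2% were lower and 3.49% higher. Krt8, a keratin of ductal epithelium, averaged 164.6 ± 149.5 in stroma and 2499.7 ± 849.8 in epithelium (SD, n = 18 each). Col1a1, a collagen chain of fibroblasts, averaged 10941 ± 1121 in stroma and 5855 ± 1828 in epithelium (SD, n = 18 each). Cdh1, of epithelial junctions, averaged 74.7 ± 72.1 in stroma and 999 ± 358 in epithelium, and Pecam1, of endothelium, 591 ± 329 in stroma and 202 ± 223 in epithelium. Adipoq, of adipocytes, averaged 4597 ± 1540 in stroma and 2086 ± 2009 in epithelium, and Ptprc, of leukocytes, 239 ± 159 in stroma and 44.5 ± 27.0 in epithelium. Of the other marker lists, 7 of 8 for endothelium, 6 of 6 for adipocytes, 6 of 8 for leukocytes and 2 of 6 for pericytes and smooth muscle were higher in stroma, and 0 of 9 for skeletal muscle, with Acta1 at 287 ± 654 in stroma and 109 ± 321 in epithelium, passed the test. Esr1 had a median of 37.6 (13.9 to 81.8) in ERα(−/−) and 114.5 (20.3 to 396.7) in ERα(+/+) stroma, and of 23.1 (1.6 to 100.2) in ERα(−/−) and 36.3 (1.1 to 142) in ERα(+/+) epithelium, so the genotypes overlapped. There were 5 arrays that stood apart with 9 skeletal muscle markers summing to between 13190 and 36617, against at most 1922 on the other arrays. They were stroma ERα(−/−) BPA replicate 1, stroma ERα(−/−) EE2 replicate 3, stroma ERα(+/+) EE2 replicate 2, epithelium ERα(−/−) BPA replicate 1 and epithelium ERα(−/−) EE2 replicate 3. The ratio of the 3′ to the 5′ probe set of Gapdh, which is higher where RNA is shorter, lay between 6.01 and 20.8 on the stroma arrays and between 5.09 and 12.9 on the epithelium arrays, and its part in the results was not tested. The dimmest arrays were epithelium ERα(+/+) vehicle replicate 2 (median 10.9), stroma ERα(+/+) vehicle replicate 2 (12) and stroma ERα(+/+) BPA replicate 3 (14.6).

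Stroma and epithelium were compared first, over all exposures and genotypes, which asks in which compartment each gene was expressed. Of the 8 genes 5, namely Dcn, Lum, Ogn, Bgn and Aspn, were higher in stroma, Prelp was lower in stroma than in epithelium, and Fmod and Omd did not pass the test. In all, 6 of 8 genes passed an adjusted p of 0.05, against 16.7% of the 45101 probe sets on the array. The 5 higher genes stand against 3.49% of probe sets called higher in stroma, and Prelp against 13.2% called lower. The median log2 change was 1.33 for the 8 genes and −0.35 for all probe sets. All values come from mixed tissue, in which fewer cells of a type and less RNA per cell cannot be told apart. The summed signal of the 16 fibroblast markers lay between 33569 and 58505 in stroma and between 8941 and 35830 in epithelium, and its part in these differences was not tested.

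**Figure D1:**
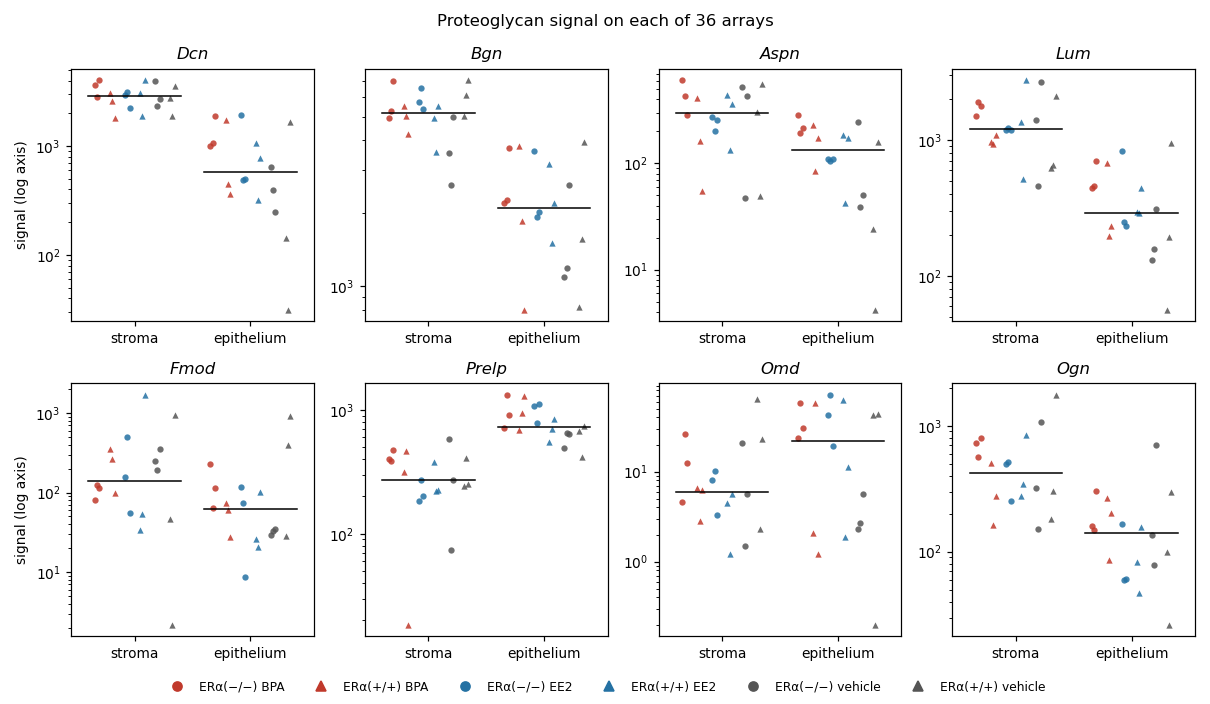
Signal of each gene on every array (log axis), stroma left and epithelium right, with color for exposure, circles for ERα(−/−), triangles for ERα(+/+) and a line at the median of the 18 arrays. Dcn, Bgn, Lum and Ogn sit higher in stroma, Prelp sits lower in stroma (median 270.25, against 730.2 in epithelium), and Omd is at most 71.3 on any array.

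Dcn, which coats collagen fibrils and binds TGF-β, showed the largest difference among the 8. Its signal had a lowest value of 1805, a median of 2893 and a highest value of 4045 in stroma, against 31.5, 573 and 1937 in epithelium. The ranges overlapped only narrowly, in that 2 of the 18 epithelium arrays, both from ERα(−/−) glands, rose above the lowest stroma array. The means were 2917 ± 726 in stroma and 819.7 ± 621 in epithelium (SD, n = 18 each), a log2 change of 2.32 (SE 0.36, adjusted p = 3.51e-05, limma). The weaker Dcn probe set was also higher in stroma, by 1.82 on the log2 scale (SE 0.31, adjusted p = 0.000111, limma).

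Bgn, the closest relative of Dcn, had signals of 2621, 5156 and 7073.5 (lowest, median and highest) in stroma, against 800.6, 2111 and 3936 in epithelium. The 2 ranges overlapped between 2621 and 3936. Bgn varied little within stroma, with a standard deviation of 22.6% of the mean, against 46.1% in epithelium. The log2 change was 1.33 (SE 0.23, adjusted p = 0.000162, limma), and its further 2 probe sets gave 1.86 and 1.84, both past the test. Aspn, which carries a stretch of aspartates in place of a chain attachment region, had 46.9, 296 and 609.6 in stroma, against 4.2, 134.9 and 283 in epithelium. Its difference was the weakest of those called, at 1.32 (SE 0.43, adjusted p = 0.0351, limma), and its weaker probe set gave 2.18 (SE 0.38, adjusted p = 0.000188, limma). The call at the brighter Aspn probe set was lost in 11 of the 36 fits that left out 1 array (adjusted p of 0.00788 to 0.0597) and without the 5 arrays rich in muscle markers (adjusted p = 0.0871, limma). The 11 arrays were, in stroma, ERα(−/−) BPA replicate 1, ERα(−/−) vehicle replicates 1 and 3, ERα(+/+) BPA replicate 1, ERα(+/+) EE2 replicate 1 and ERα(+/+) vehicle replicate 3, and, in epithelium, ERα(−/−) BPA replicate 2, ERα(−/−) vehicle replicates 2 and 3, ERα(+/+) BPA replicate 2 and ERα(+/+) EE2 replicate 2.

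Among the class II genes, Lum, a keratan sulfate proteoglycan that limits the width of collagen fibrils, had signals of 461, 1213 and 2759 in stroma, against 56.6, 293 and 944 in epithelium. Its log2 change was 1.97 (SE 0.33, adjusted p = 9.15e-05, limma). Fmod, which binds the same site on collagen as Lum, was uneven in both compartments, at 2.2, 139.8 and 1684 in stroma, against 8.8, 62 and 924 in epithelium. Its highest values came from stroma ERα(+/+) EE2 replicate 3 (1684.4) and from ERα(+/+) vehicle replicate 3, which had 953 in stroma and 923.9 in epithelium. The log2 change of 1.08 (SE 0.62) did not pass the test (adjusted p = 0.244, limma). Of the 6 Fmod probe sets, 5, the brightest among them, are of a kind whose probes can match other transcripts. Of these 5, 1 passed the test, at 2.06 (SE 0.65, adjusted p = 0.0268, limma). The remaining probe set was dim, at 20.7 ± 11.4 in stroma and 17.7 ± 10.4 in epithelium (SD, n = 18 each). Its log2 change was 0.36 (SE 0.36, adjusted p = 0.534, limma).

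Prelp went the other way. The protein, also called prolargin, binds collagen and the heparan sulfate of basement membranes and is thought to anchor these membranes to connective tissue. Its signal had a lowest value of 18.5, a median of 270.25 and a highest value of 582 in stroma, against 414.5, 730.2 and 1321 in epithelium. Means were 298 ± 142 in stroma and 808.5 ± 255 in epithelium (SD, n = 18 each), a log2 change of −1.65 (SE 0.31, adjusted p = 0.00048, limma). Its other probe set, at 235.6 ± 165 in stroma and 685 ± 243 in epithelium (SD, n = 18 each), changed by −1.84 (SE 0.34, adjusted p = 0.000313, limma). Of the 18 stroma arrays, 3 lay above the lowest epithelium array, at 462, 474.8 and 582.4. The summed signal of the 14 epithelial markers lay between 533 and 4841 in stroma and between 10341 and 20015 in epithelium. The sum of 8 cartilage and tendon markers lay between 197 and 702 in stroma and between 522 and 2929 in epithelium. Col2a1, Col9a1, Sox9 and Scx, 4 of the 8, were called lower in stroma, where 13.2% of probe sets were. The others, Acan (0.54), Comp (0.01), Matn1 (0.21) and Tnmd (0.87), were not lower in stroma and did not pass the test. Most of the epithelium sum came from Col2a1, Col9a1 and Sox9, with means of 555, 476 and 619. The part of these epithelial, cartilage and tendon markers in the level of Prelp was not tested.

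Omd, a keratan sulfate proteoglycan known best from bone, was dim. It fell below the median signal of its array on 17 of 18 stroma arrays and 13 of 18 epithelium arrays, with a median of 6 in stroma and 21.65 in epithelium. Its log2 change of −0.72 (SE 0.65) did not pass the test (adjusted p = 0.488, limma). Ogn, which also binds collagen, had signals of 152.5, 422 and 1758 in stroma, against 26.4, 141.85 and 705 in epithelium, and a log2 change of 1.74 (SE 0.37, adjusted p = 0.00157, limma). Its weaker probe set gave 1.76 (SE 0.46, adjusted p = 0.00811, limma). The highest Ogn signals came from vehicle arrays with replicate number 3, at 1073 in ERα(−/−) stroma, 1758 in ERα(+/+) stroma and 705 in ERα(−/−) epithelium.

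**Figure D2:**
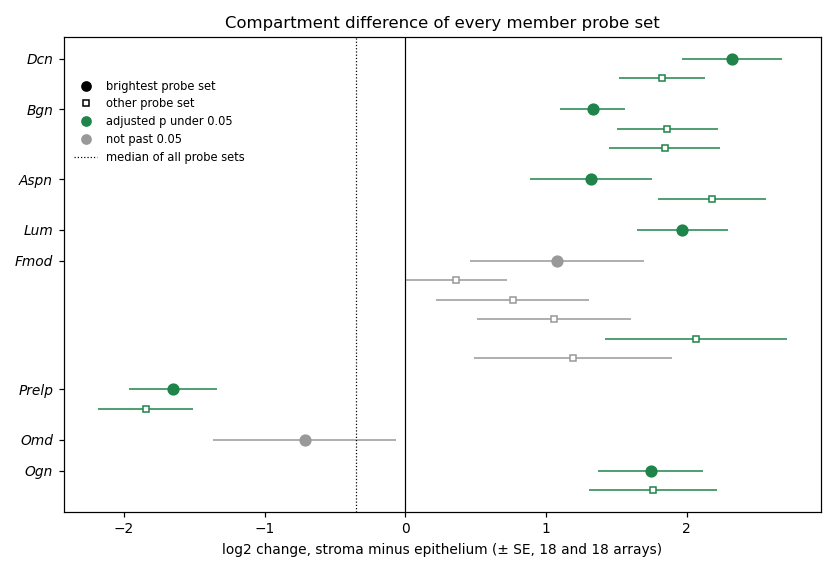
Log2 change between stroma and epithelium (stroma minus epithelium, ± SE) of all 19 probe sets, with filled circles for the brightest probe set of a gene and open squares for the others. Every probe set of Dcn, Bgn, Aspn, Lum and Ogn lies to the right of 0 in green (adjusted p under 0.05), both probe sets of Prelp lie to the left, and the dotted line marks the median of all probe sets (−0.35).

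The calls did not rest on the scaling of the arrays. After quantile normalization 5 of the genes were again higher and 1 lower in stroma, although the split over all probe sets became 3280 higher and 3300 lower, against 1573 higher and 5959 lower in the values as deposited. The median change of all probe sets was then −0.01, against −0.35 as deposited, and the genes kept their directions relative to either. Leaving out the 3 dimmest arrays gave 5 higher and 1 lower, and leaving out the 5 arrays rich in muscle markers gave 4 higher and 1 lower, against 1028 and 3610 probe sets. In a fit of the vehicle arrays alone 0 of the 8 genes passed, where 1 probe set was called higher and 6 lower, although Dcn changed by 3.31 and Lum by 2.41.

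Within the 6 combinations of genotype and exposure, each with 3 arrays against 3, none of the 48 differences passed an adjusted p of 0.05 (limma). Pooled over the 6 combinations, 0.291% of probe sets passed. At an unadjusted p of 0.05, 21 of the 48 differences passed, 19 of them higher in stroma and 2 lower, where 10.3% of probe sets passed (2.66% higher and 7.64% lower). Dcn and Bgn were higher in stroma without overlap in all 6 combinations, Lum in all but ERα(+/+) vehicle glands, and Ogn in ERα(−/−) BPA, ERα(−/−) EE2 and ERα(+/+) EE2 glands. Prelp was lower in stroma without overlap in all but ERα(−/−) vehicle glands. In ERα(−/−) glands the genes higher without overlap numbered 5 of 8 after BPA, 5 after EE2 and 4 after vehicle, where 3.83%, 2.65% and 5.51% of probe sets were. In ERα(+/+) glands they numbered 4 after BPA, 4 after EE2 and 2 after vehicle, where 1.92%, 5.56% and 4.51% of probe sets were. The genes lower without overlap numbered 1, 2 and 0 in ERα(−/−) glands after BPA, EE2 and vehicle, where 20.9%, 27% and 7.32% of probe sets were, and 1 each in ERα(+/+) glands, where 17.3%, 7.88% and 4.64% were. Over all 18 arrays against 18, 0 of the 8 genes were without overlap, as against 0.206% of probe sets. The smallest adjusted p was for Dcn in ERα(+/+) vehicle glands, with 2745, 1877 and 3583.5 in stroma, against 143.6, 31.5 and 1683 in epithelium, a log2 change of 3.75 (SE 0.87, adjusted p = 0.0718, limma). For Prelp the widest gap was in ERα(+/+) BPA glands, with 315.9, 462 and 18.5 in stroma, against 687.6, 945 and 1283 in epithelium (log2 change −2.76, SE 0.77, adjusted p = 0.109, limma). The stroma array at 18.5 is one of the dimmest. Whether the compartment difference itself depended on exposure or genotype was tested by interaction terms, and 0 of the 8 genes passed, where 0% of probe sets did (at an unadjusted p of 0.05, 0 genes and 4.93% of probe sets). For Dcn the difference was smaller after BPA than after vehicle by 1.64 on the log2 scale (SE 0.87, adjusted p = 0.883, limma).

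The family was then set beside the molecules it works with, each gene at its own brightest probe set, in the same fit. In that fit 3.49% of probe sets were called higher in stroma and 13.2% lower. Collagens bound by these proteoglycans followed the direction of Dcn and Lum: 9 of 10 were higher in stroma and 0 lower, with a median change of 1.66 against −0.30 over all genes. Col5a2 and Col5a1, chains of the collagen that starts fibrils, rose most in stroma, by 2.14 and 1.98 on the log2 scale. Col14a1, named after its values were seen, was the exception, at −0.35 (SE 0.34, adjusted p = 0.525, limma). Quantile normalization and a shift to a common median likewise gave 9 of 10 collagens higher. Of the 7 other family genes measured, 0 passed the test, and 3 of them are given here for their place beside the 8 genes. Kera, next to Lum on chromosome 10, averaged 246 ± 192 in stroma and 129.6 ± 145 in epithelium (SD, n = 18 each), with a log2 change of 1.45 (SE 0.62, adjusted p = 0.105, limma). Epyc, the last gene of that row, averaged 6.71 ± 4.31 in stroma and 6.30 ± 6.23 in epithelium, and Ecm2, beside Aspn on chromosome 13, had a log2 change of −0.74 (SE 0.49, adjusted p = 0.316, limma).

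Enzymes that build the sugar chains were mostly not called. Of 21 genes for the linker and the chondroitin or dermatan sulfate chain, 2 were higher in stroma and 0 lower, where 3.49% and 13.2% of probe sets were. These were Dse, the epimerase that turns chondroitin into dermatan sulfate (log2 change 1.54, SE 0.33, adjusted p = 0.00161, limma), and Ust, a sulfotransferase (0.86, SE 0.27, adjusted p = 0.0294, limma). Of 13 genes of keratan sulfate and sulfation, 3 were higher in stroma and 2 lower, beside the same shares. The sulfate donor is made by a pair of synthases, and Papss2 averaged 422 ± 243 in stroma and 183 ± 139 in epithelium (log2 change 1.48, SE 0.42, adjusted p = 0.0152, limma). Papss1 averaged 283 ± 152 in stroma and 705 ± 235 in epithelium (log2 change −1.45, SE 0.25, adjusted p = 0.000139, limma). Slc26a2, a sulfate carrier, was also lower in stroma, by a log2 change of −1.57 (SE 0.40, adjusted p = 0.00686, limma), and Chst1, a keratan sulfate sulfotransferase, was higher, by 1.29 (SE 0.28, adjusted p = 0.00161, limma).

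Of 13 ligands and receptors that these proteins bind, 3 were higher in stroma and 1 lower, where 3.49% and 13.2% of probe sets were. Tlr4, a receptor that Bgn engages, passed the test (adjusted p = 0.0116, limma) with 82.1 ± 82.6 in stroma and 11.5 ± 16.6 in epithelium (SD, n = 18 each), but the epithelium mean lay below the middle of the epithelium array medians (40.45), so the size of its change is uncertain. Kdr, a receptor of endothelial cells that Dcn binds, changed by 2.27 (SE 0.56, adjusted p = 0.00525, limma). Met, the receptor of hepatocyte growth factor and a target of Dcn, was lower in stroma by a log2 change of −2.02 (SE 0.28, adjusted p = 8.24e-06, limma). Kdr is itself 1 of the 8 endothelial markers, of which 7 were higher in stroma, as were 6 of 8 leukocyte markers, and the part of these cells in Kdr and Tlr4 was not tested. Of 10 proteases and their helpers, 3 were higher in stroma and 0 lower, led by Adamts5, which cuts proteoglycans (2.78, SE 0.58, adjusted p = 0.00125, limma), and Pcolce, which assists procollagen processing and averaged 4525 ± 1052 in stroma and 1309 ± 1272 in epithelium (2.40, SE 0.40, adjusted p = 0.000112, limma). Of 7 genes listed for fibrous tissue, regulators and a matrix protein, 4 were higher in stroma, led by Twist1 (2.49) and Prrx1 (1.76). The 2 lower genes were Scx, a regulator of tendon genes, with 13.2 ± 10.7 in stroma and 44.1 ± 20.6 in epithelium (−2.16, SE 0.38, adjusted p = 0.000221, limma), and Sp1 (−0.74). The Scx mean in stroma lay below the middle of the stroma array medians (27.45), so the size of its change is uncertain too. Of the companion genes named here as called, Sp1 lost its call when the arrays were quantile-normalized (adjusted p = 0.169, limma) or shifted to a common median (adjusted p = 0.4, limma), and the others kept call and direction.

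Across the 18 stroma arrays the genes varied together only in part. As deposited, the log2 signals of Dcn and Aspn correlated with r = 0.78 and those of Lum and Ogn likewise with r = 0.78, but array brightness enters these values, and after quantile normalization r was 0.46 and 0.67 (n = 18). Across the 18 epithelium arrays the closest pairs after quantile normalization were Bgn with Lum (r = 0.78), Dcn with Aspn (0.73), Dcn with Bgn (0.69) and Dcn with Lum (0.64). Prelp stood apart there, with r of −0.46 to Bgn, −0.39 to Fmod and to Ogn, and −0.14 to Dcn. Probe sets of the same gene also agreed unevenly with the brightest one. Their r ran from 0.27 (Prelp) to 0.84 (Aspn) in stroma, and from 0.085 (Ogn) to 0.83 (an Fmod probe set) in epithelium (n = 18). The part of such differences in the low values between genes was not tested. The arrays share compartments, exposures and litters, so these correlations are descriptions. The genes most like the mean of the 8 over the stroma arrays, among 7647 with a mean stroma signal of at least 100, were Casp8 (r = 0.85), Postn (0.82), Col1a1 (0.80), Zmym3 (0.78) and Dpf2 (0.76), on quantile-normalized values with n = 18. Postn, a matrix protein of fibroblasts, and Col1a1 were themselves higher in stroma, with log2 changes of 1.68 (adjusted p = 5.1e-05, limma) and 0.97 (adjusted p = 0.000483, limma), while Casp8, Zmym3 and Dpf2 did not pass that test.

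**Figure D3:**
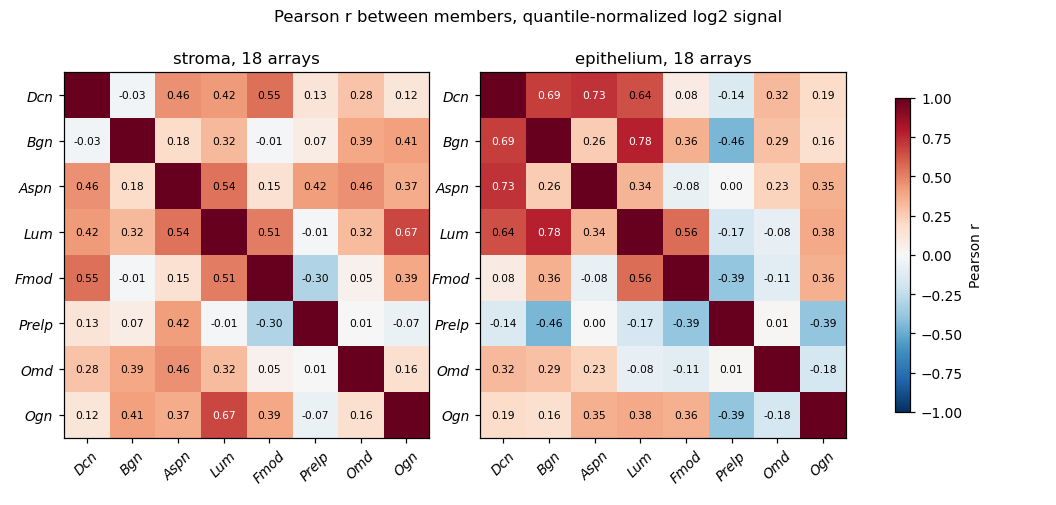
Pearson correlation between the 8 genes over the 18 stroma arrays (left) and the 18 epithelium arrays (right), on quantile-normalized log2 signals, with red for positive and blue for negative values. In epithelium Dcn, Bgn and Lum form a positive block (0.64 to 0.78), and the Prelp row is near or below 0.

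Exposure was tested within each compartment, with the genotypes weighted equally, to ask whether fetal BPA or EE2 shifted these genes. In stroma, 0 of the 8 genes passed for BPA against vehicle and 0 for EE2 against vehicle, where 0% of probe sets passed in either comparison (4.54% and 4.51% at an unadjusted p of 0.05, limma, and 0 of the 8 genes). At the brightest probe sets the BPA changes ran from −0.30 (Omd) to 0.44 (Fmod) with a median of 0.14, beside 0.16 over all probe sets. The other probe sets of these genes spread wider for BPA, from −1.72 (Fmod) to 0.95 (Ogn), with Dcn at −0.69. The EE2 changes at the brightest probe sets ran from −1.03 (Omd) to 0.50 (Fmod). Dcn in stroma had a lowest signal of 1805, a median of 2945 and a highest signal of 4013.5 after BPA, 1874, 3038 and 4045 after EE2, and 1877, 2726 and 3933 after vehicle. The groups overlapped almost fully. The log2 change of Dcn was 0.06 for BPA (95% interval −0.76 to 0.88) and 0.02 for EE2 (−0.80 to 0.84), so the values do not tell apart changes within these bounds. Bgn in stroma had 4255, 5156 and 7009 after BPA, 3559, 5438 and 6554 after EE2, and 2621, 5007.5 and 7073.5 after vehicle, with a log2 change of 0.18 for BPA (95% interval −0.59 to 0.95) and 0.16 for EE2 (−0.61 to 0.93). The intervals of the other 6 genes were wider, reaching from −2.10 to 2.99 for Fmod after BPA.

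In epithelium, 0 of the 8 genes passed for BPA or for EE2 against vehicle (limma, adjusted p), where 0% and 0.00222% of probe sets passed. At an unadjusted p of 0.05 the shares of probe sets were 17.7% and 8.88%. Aspn and Dcn, 2 of 8 genes, then passed as higher after BPA, where 17.3% of probe sets were, and 0 of 8 passed for EE2. The change after BPA was positive for 7 of 8 genes with a median of 0.84, beside 0.68 over all probe sets, but for 6 of 8 (median 0.40, beside −0.01) after quantile normalization and 4 of 8 (median −0.06, beside −0.22) when arrays were shifted to a common median. Aspn in epithelium had a lowest signal of 84.5, a median of 206 and a highest signal of 283 after BPA, 42.2, 110.7 and 185.5 after EE2, and 4.2, 44.75 and 244.8 after vehicle. The groups overlapped, and the log2 change for BPA was 2.06 (SE 0.74, adjusted p = 0.221, limma). The weaker Aspn probe set changed by 1.01. Aspn fell below the median signal of its array on 3 of 18 epithelium arrays. Dcn had 364, 1033 and 1885 after BPA, 322.5, 639 and 1937 after EE2, and 31.5, 322 and 1683 after vehicle, with a log2 change for BPA of 1.70 (SE 0.79, adjusted p = 0.277, limma). The weaker Dcn probe set changed by 0.80. One vehicle array, ERα(+/+) replicate 3, held the Dcn signal of 1683 while the other 5 lay at 647 or below.

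Prelp, the gene higher in epithelium, had a lowest signal of 688, a median of 929 and a highest signal of 1321 in epithelium after BPA, 555, 813 and 1116 after EE2, and 414.5, 644 and 740.1 after vehicle. Its log2 change was 0.68 for BPA (SE 0.33, adjusted p = 0.289, limma) and 0.48 for EE2 (SE 0.33, adjusted p = 0.651, limma), and both turned slightly negative, to −0.22 and −0.06, when the arrays were shifted to a common median. Fmod was the 1 gene with a negative change after BPA at its brightest probe set (−0.14). The other Fmod probe sets ran from −0.84 to 0.86, with 0.70 at the dim one whose kind does not match other transcripts. Ogn changed by 0.43 after BPA and −0.66 after EE2. BPA against EE2 gave 0 of 8 genes in stroma and 0 of 8 in epithelium, where 0% of probe sets passed (at an unadjusted p of 0.05, 0 genes in either, with 3.75% and 4.22% of probe sets). The widest BPA and EE2 contrast was Ogn in epithelium, with 86.3, 182 and 301 after BPA, against 46.9, 72.2 and 164.8 after EE2 (log2 change 1.09, SE 0.65, adjusted p = 1, limma).

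**Figure D4:**
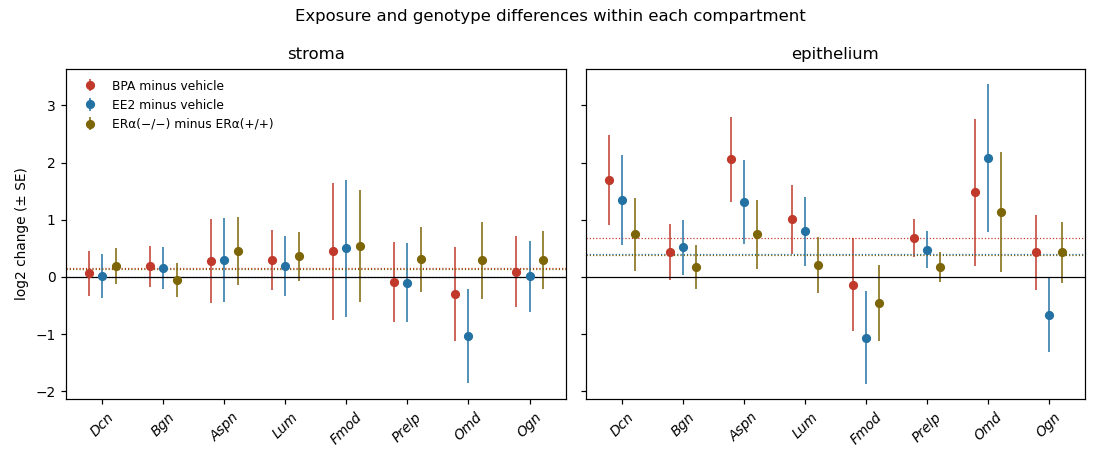
Log2 changes (± SE) of the 8 genes for BPA minus vehicle, EE2 minus vehicle (6 arrays each) and ERα(−/−) minus ERα(+/+) (9 arrays each), in stroma (left) and epithelium (right), with dotted lines in the same colors at the median of all probe sets. The stroma points, at the brightest probe sets, run from −0.30 to 0.44 for BPA, −1.03 (Omd) to 0.50 for EE2 and −0.06 to 0.54 for genotype. The epithelium points for BPA lie mostly above 0, around a probe set median of 0.68.

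Array brightness, the Gapdh ratio and the summed markers of several cell types differed on average between exposures in the epithelium, with groups that overlapped. Their part in the exposure values was not tested. The median signal averaged 51.4 ± 12.7 after BPA, 40.7 ± 14.7 after EE2 and 29.3 ± 12.05 after vehicle (SD, n = 6 each). The Gapdh 3′ to 5′ ratio averaged 7.19 ± 1.61 after BPA, 7.99 ± 2.80 after EE2 and 10.6 ± 1.77 after vehicle (SD, n = 6 each). The summed fibroblast markers had a median of 26032 (18452 to 35271) after BPA, 21530 after EE2 and 14338 (8941 to 35830) after vehicle. The 14 epithelial markers summed to a median of 16436 (12464 to 20015) after BPA, 14957 after EE2 and 13908 (10341 to 17818) after vehicle. The 8 endothelial markers summed to a median of 2281 (357 to 4364) after BPA, 1499 after EE2 and 297.6 (54.1 to 2767) after vehicle, and the 6 adipocyte markers to 23536 (4646 to 35144) after BPA, 14848 after EE2 and 8479 (2466 to 26427) after vehicle. For BPA against vehicle, 0 markers of any list passed (limma, adjusted p). At an unadjusted p under 0.05, 5 of 8 endothelial, 2 of 16 fibroblast and 2 of 8 leukocyte markers were higher, where 17.3% of probe sets were. The median log2 change was 2.59 for endothelium, 1.61 for adipocytes, 1.26 for leukocytes and 0.68 for fibroblasts, beside 0.61 over all genes. Across the 18 epithelium arrays the log2 signals tracked the fibroblast sum with r = 0.92 for Dcn, 0.85 for Aspn, 0.68 for Lum, 0.64 for Bgn and 0.51 for Ogn. For Omd r was 0.49, for Prelp 0.33 and for Fmod 0.19. Dcn also tracked the sums for endothelium (r = 0.83), leukocytes (0.78) and adipocytes (0.73). Prelp tracked the summed epithelial markers with r = 0.72 and Dcn did so with −0.01. Array brightness is part of all of these sums. With the median signal of the array itself, r was 0.77 for Dcn, 0.71 for Omd, 0.63 for Aspn and 0.62 for Prelp. It was 0.39 for Lum, 0.38 for Bgn, 0.27 for Ogn and −0.04 for Fmod. Of the companion and marker genes named above, 0 passed in any of these exposure comparisons (limma, adjusted p).

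**Figure D5:**
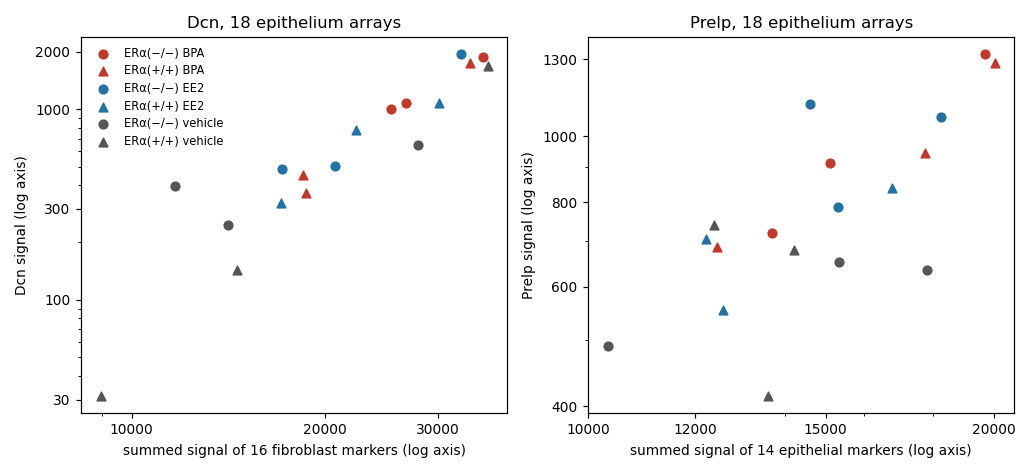
Signals on the 18 epithelium arrays (log axes), with Dcn against the summed signal of 16 fibroblast markers (left) and Prelp against that of 14 epithelial markers (right), in colors for exposure with circles for ERα(−/−) and triangles for ERα(+/+). Dcn climbs with the fibroblast sum (r = 0.92), with the dim ERα(+/+) vehicle array at 31.5 in the lower left corner, and Prelp climbs more loosely with the epithelial sum (r = 0.72).

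Genotype asked whether loss of ERα altered these genes. Over the exposures 0 of the 8 genes passed in stroma (0.00222% of probe sets did) and 0 in epithelium (0% did), by limma with adjusted p. At an unadjusted p of 0.05 the count was also 0 of 8 in either compartment, where 3.82% and 8.19% of probe sets passed. Changes in stroma ran from −0.06 (Bgn) to 0.54 (Fmod) and in epithelium from −0.45 (Fmod) to 1.14 (Omd). Among vehicle glands Bgn in stroma had 3552, 2621 and 4993 in ERα(−/−) and 5022, 6135 and 7073.5 in ERα(+/+) fetuses. The genotypes did not overlap there, and 3.3% of probe sets were likewise lower without overlap, while the log2 change was −0.74 (SE 0.51, adjusted p = 0.999, limma). Fmod in vehicle epithelium had 29.7, 32.7 and 34.9 in ERα(−/−) and 28.8, 399 and 924 in ERα(+/+) fetuses, so 2 ERα(+/+) arrays carried the difference of −2.76 (SE 1.15, adjusted p = 0.821, limma).

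Exposure within each genotype, genotype within vehicle glands and their interactions gave 7 comparisons in each compartment. None of the 8 genes passed in any of them by adjusted p (limma), where 0% of probe sets passed in stroma and 0.00095% in epithelium. At an unadjusted p of 0.05, 0 of 56 values passed in stroma, where 4.11% of probe sets did, and 4 of 56 in epithelium, where 7.11% did. In ERα(−/−) epithelium 5 genes, Dcn, Lum, Fmod, Prelp and Omd, were higher after BPA than after vehicle without overlap, as were 24.8% of probe sets. Dcn had 995.6, 1069.8 and 1885 after BPA, against 646.7, 396.7 and 248.1 after vehicle (log2 change 1.66, SE 1.11, adjusted p = 0.548, limma). Lum had 445, 463 and 696 after BPA, against 130.2, 159.3 and 313 after vehicle (1.49, SE 0.85, adjusted p = 0.498, limma). Prelp and Omd were also higher after EE2 without overlap, as were 16.5% of probe sets, with Prelp at 1066.6, 786 and 1115.8 after EE2, against 491, 652.7 and 636 after vehicle. In ERα(+/+) epithelium 0 of the 8 genes were without overlap for BPA or for EE2, as against 11.2% and 6.82% of probe sets. In ERα(−/−) stroma Bgn was higher after EE2 without overlap, at 5748, 6554 and 5367, against 3552, 2621 and 4993 after vehicle (0.71, SE 0.51, adjusted p = 1, limma), as were 3.59% of probe sets, and Fmod was lower after BPA without overlap, at 79.8, 122.6 and 114.9, against 247.5, 189.4 and 350.0 after vehicle, as were 2.26%. The widest interaction of exposure and genotype was Fmod for BPA in epithelium, at 4.02 (SE 1.63, adjusted p = 1, limma).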

How the data were processed

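Per the labels and methods, laser-captured RNA was amplified and hybridized to Affymetrix Mouse Genome 430 2.0 arrays, and GCOS gave the cell files, which the authors processed by RMA in Partek. The deposited intensity values are linear, hold 39 zeros and have unequal array medians, so the scaling they received is not given in the sources used here.

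A floor of 0.1 was set before log2 values were taken. limma 3.58.1 in R 4.3.3 (statmod 1.5.0) fitted 12 group means over all 36 arrays for the compartment comparison and 6 group means within a compartment for exposure and genotype, with Benjamini-Hochberg adjustment over 45101 probe sets and a threshold of 0.05. Fitting was checked on simulated data. Genes were named through the platform annotation, in which 34958 probe sets carry 1 symbol, 932 several and 9211 none. Named genes were the 8 members, up to 2 genes with the largest rise and 2 with the largest fall of each companion list among those called, the 5 genes most like the members, and defining markers. Members, lists and tests were chosen with earlier results of these data known. Promoter sequences and gene order are from RefSeq (GRCm38.p6). The methods' t-test and analysis of variance were run as alternatives, beside other scalings, offsets, filters, weights and arrays left out. p-values measure the spread between fetuses of 3 litters a group. The number of arrays limits the precision.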

Additional observations from a re-analysis of the deposited data

Results flagged for a closer look

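Each set of 6 arrays of a compartment and exposure was searched for a value far from the others on the log2 scale, and 1 of 48 sets held one, where chance gives about 1 in 20. It was Prelp in BPA-exposed stroma, where ERα(+/+) replicate 3 had a signal of 18.5 and the next array 315.9. That array had a median signal of 14.6, among the 3 dimmest. Groups of 3 were not searched.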

How the results depend on the processing

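Dcn, Bgn, Lum, Prelp and Ogn kept their direction and call between stroma and epithelium under every alternative run except vehicle arrays alone. Vehicle arrays alone gave 0 of the 6 calls, with changes of 3.31 (Dcn), 1.54 (Bgn), 2.25 (Aspn), 2.41 (Lum), −1.20 (Prelp), 1.63 (Ogn) and, in the opposite direction, 0.91 (Omd). That fit, over fewer arrays, called 1 probe set higher and 6 lower. Leaving out 1 array at a time kept 5 or 6 calls, and leaving out the 5 arrays rich in muscle markers, chosen after seeing the data, kept 5, with Aspn at 1.38. Within genotype and exposure the count of 0 of 48 became 1 with quantile normalization, a common median, a low-signal filter, array weights, a trended prior or without the 3 dimmest arrays, and 2 with 16 added to every value. It became 18 with the methods' t-test at an unadjusted p and 2-fold, and lay between 0 and 4 with 1 array left out (4 without epithelium ERα(+/+) vehicle replicate 3, and 1 without stroma ERα(+/+) BPA replicate 1 or 3). The methods' t-test also gave 1 value in stroma and 4 in epithelium for exposure within a genotype, and 1 in epithelium for BPA against EE2 (Ogn). Among changes for exposure in epithelium larger than their SE, those that turned were Prelp for BPA (−0.22), Prelp for EE2 (−0.057) and Bgn for EE2 (−0.013) with a common median, and Ogn for EE2 (0.083) with the mean of its probe sets. Smaller changes turned too, among them BPA for Bgn (−0.47) and Ogn (−0.47) with a common median and for Ogn with quantile normalization (−0.29). In all, 161 of 1916 exposure and genotype values changed sign, none of them called. The causes were not tested.

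Per the methods, the epithelium and the stroma of 1 gland were collected as separate samples, so the compartments are paired by gland in the design. Stroma and epithelium share replicate numbers, but no label ties a number to 1 gland, and 7 of 18 same-number pairs correlated above 0.1. The main comparison was therefore left unpaired and treats the arrays of both compartments as independent. As a hint from the data that the numbers follow the glands, 14 of 18 correlated best with their own number (mean r 0.08, against −0.04 for other numbers). With the replicate block 6 genes were again called, among 1980 probe sets higher and 7159 lower, and the block within a compartment called 0 for exposure. Over all probe sets, counts moved by more than 1.5 times from 1573 higher and 5959 lower with quantile normalization (3280 and 3300), a common median (3301 and 2523) and without the muscle-rich arrays (1028 and 3610). Genes with signals near the array median, Omd above all, are limited by signal over background.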

Other observations

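The analysis of variance over exposures that the methods name, unadjusted and over 18 arrays of a compartment, selected 1 of the 8 genes in epithelium, Prelp, where 11% of probe sets were selected, and 0 of the 8 in stroma, where 3.9% were. The arrays rich in skeletal muscle markers included ERα(−/−) BPA replicate 1 in both stroma (25275) and epithelium (13190), and ERα(−/−) EE2 replicate 3 in both stroma (33298) and epithelium (19344).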
